A study of Arabidopsis thaliana with 9 samples.

Results

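The small (40S) subunit of the cytosolic ribosome is built from 1 ribosomal RNA and a set of small-subunit proteins, and each of these proteins is encoded in Arabidopsis thaliana by several nuclear genes. The 53 genes described here, of 33602 genes in the count tables, encode 20 of these proteins, with 2 to 4 listed genes (paralogs) each. They were taken by locus identifier and not by a limit on their expression, but with earlier results of these data known. RNA-seq of whole plants was available for 3 genotypes, with 3 libraries each and 9 in all. *prmt5* plants carry the *prmt5-5* allele of PRMT5, the type II protein arginine methyltransferase. *prmt4a;4b* plants combine T-DNA insertions in PRMT4a and PRMT4b, 2 type I protein arginine methyltransferases, and wild-type plants carry none of these mutations. All are of the Columbia accession and were grown on agarose plates with Murashige and Skoog medium in continuous light at 22 °C. The labels give an age of 15 days at harvest and the methods of the study give a younger age. Both mutants were compared with the same 3 wild-type libraries, so the comparisons with wild type are not independent of each other. No label says whether the libraries of a genotype came from separate cultures, and p-values measure only the spread between these libraries.

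The 40S subunit binds the messenger RNA, scans for the start codon and decodes it. Its proteins are made in the cytosol, imported into the nucleolus and assembled there on the ribosomal RNA precursor, and their genes are among the most active in growing tissue. Paralogs of a plant ribosomal protein are close in sequence, and mutants in single paralogs can still have phenotypes, such as the pointed first leaves of plants without a normal S18 or S13 gene. Protein arginine methyltransferases modify histones, splicing factors and other RNA-binding proteins, and in human cells PRMT5 methylates the S10 protein of the 40S subunit.

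The libraries held 25029646 to 39904677 gene reads. The 53 genes together took 0.649 to 0.807% of them in *prmt5*, 0.586 to 0.642% in *prmt4a;4b* and 0.763 to 0.838% in wild-type plants. After scaling for library composition, their summed level was 7667 ± 851 CPM (reads scaled to a common library size) in *prmt5*, 6582 ± 270 in *prmt4a;4b* and 7105 ± 9.3 in wild-type plants (SD, n = 3 each). PRMT4a (AT5G49020) and PRMT4b (AT3G06930) were lower in *prmt4a;4b*, with log2 changes of -2.84 and -3.97, and PRMT4a was also lower in *prmt5* (-0.66). The message of PRMT5 (AT4G31120, listed as SKB1) was not reduced in *prmt5* (973, 1060 and 859 reads in *prmt5* against 723, 813 and 623 in wild-type plants; log2 change 0.27, adjusted p = 0.14 in edgeR), so it does not mark the mutant. Plastid-encoded transcripts were 0.604 to 2.1% of the gene reads in *prmt5*, 0.869 to 3.94% in *prmt4a;4b* and 0.323 to 0.58% in wild-type plants. *prmt5* replicate 1 had the highest plastid share of its genotype, 2.1%, and the lowest summed level of the 53 genes, 6881 CPM. In whole plants, fewer cells of a kind and less RNA per cell cannot be told apart.

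More of these genes fell than rose in both mutants. In *prmt5*, 8 of the 53 genes rose, 20 fell and 25 were not called, against 11.9% called higher and 14.2% called lower among all 21078 genes tested. In *prmt4a;4b*, 4 rose, 27 fell and 22 were not called, against 13.8% higher and 12.0% lower among 20844 genes. As shares of the 53 genes, these counts are 15.1% higher and 37.7% lower in *prmt5*, and 7.55% higher and 50.9% lower in *prmt4a;4b*, so the lower calls stand above their background in both mutants while the higher calls stand near it in *prmt5* and below it in *prmt4a;4b*. A gene was called when its adjusted p was under 0.10 and its log2 change beyond 0.58 in edgeR's quasi-likelihood test with Benjamini-Hochberg adjustment over all genes, and all 53 passed the minimum mean of 10 reads in a genotype. The median log2 change of the 53 genes was -0.14 in *prmt5* and -0.62 in *prmt4a;4b*, while that of all genes tested was -0.01 and -0.0008. Taken gene by gene, 4 were higher in both mutants, 17 were lower in both, 10 were lower and called in *prmt4a;4b* alone, 3 were lower and called in *prmt5* alone, 4 were higher and called in *prmt5* alone, and 15 were called in neither. The median in *prmt5* rests on the libraries taken, being 0.02 without *prmt5* replicate 1 and -0.35 without *prmt5* replicate 3.

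**Figure D1:**
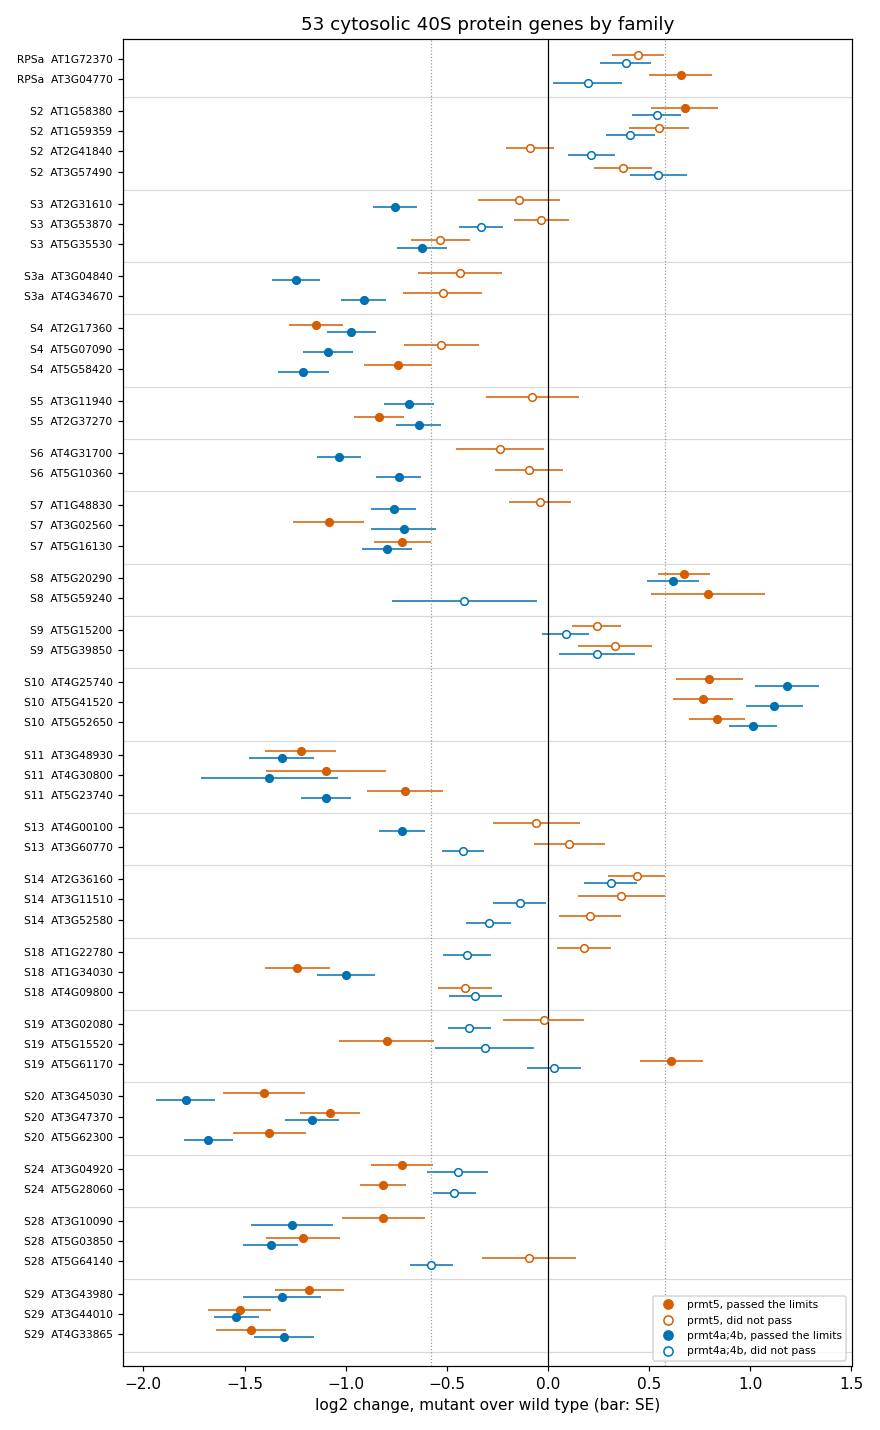
Log2 change of each of the 53 genes, grouped by protein, in *prmt5* and in *prmt4a;4b* over wild type, with bars for the standard error of the fit. The S10 genes lie right of 0 in both mutants and the S11, S20 and S29 genes lie left of it in both.

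Of the 20 proteins, S10 had the highest summed message relative to wild type in both mutants. S10 sits in the head of the subunit near the entry of the messenger RNA, and its 3 genes rose in both mutants, with log2 changes of 0.77 to 0.84 in *prmt5* and 1.01 to 1.18 in *prmt4a;4b*. AT4G25740 (chr4:13107250-13108827, TAIR10) had 278, 187 and 226 RPKM in *prmt5*, 253, 273 and 347 RPKM in *prmt4a;4b* and 131, 105 and 149.6 RPKM in wild-type plants, where RPKM are CPM per kilobase of exonic length. AT5G41520 (chr5:16609153-16610692) had 377, 270.4 and 310.5 RPKM in *prmt5*, 353, 374 and 459 RPKM in *prmt4a;4b* and 187, 157 and 203 RPKM in wild-type plants, and AT5G52650 (chr5:21355555-21357105) had 346, 256 and 301 RPKM in *prmt5*, 321, 317 and 352 RPKM in *prmt4a;4b* and 167, 146 and 178 RPKM in wild-type plants. In all 3 genes, the mutant libraries lay above every wild-type library. For AT4G25740 the log2 change was 0.80 (SE 0.17, adjusted p = 0.0047) in *prmt5* and 1.18 (SE 0.16, adjusted p = 0.00031) in *prmt4a;4b* by edgeR's quasi-likelihood test. For AT5G52650 it was 0.84 (SE 0.14, adjusted p = 0.0015) in *prmt5* and 1.01 (SE 0.12, adjusted p = 0.00018) in *prmt4a;4b* by the same test. Their shares of the family changed by 2 percentage points at most.

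Summed over paralogs, S8 and the P40 protein RPSa were also above wild type in every mutant library. S8 is a protein of the body of the subunit, and AT5G20290 (chr5:6851452-6853066), which gives nearly all of its message, had 1485, 1296 and 1537 RPKM in *prmt5*, 1427, 1228 and 1371 RPKM in *prmt4a;4b* and 866, 835 and 929 RPKM in wild-type plants. Its log2 change was 0.67 (SE 0.13, adjusted p = 0.0032) in *prmt5* and 0.62 (SE 0.13, adjusted p = 0.0034) in *prmt4a;4b* in edgeR, and the call in *prmt4a;4b* was lost without *prmt4a;4b* replicate 1 (0.56) or 3 (0.58). Its paralog AT5G59240 (chr5:23902465-23903733) had 2.44, 3.36 and 2.39 RPKM in *prmt5*, 1.39, 1.26 and 0.808 RPKM in *prmt4a;4b* and 1.79, 1.58 and 1.22 RPKM in wild-type plants. It rose in *prmt5*, by 0.79 (SE 0.28, adjusted p = 0.052) in edgeR, and was not called in *prmt4a;4b* (-0.41). The call in *prmt5* was lost without *prmt5* replicate 2 (0.61) or WT replicate 3 (0.65).

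RPSa lies on the solvent side of the subunit and is related to the human laminin receptor precursor. AT3G04770 rose in *prmt5* by 0.66 (SE 0.16, adjusted p = 0.0094) on the log2 scale in edgeR and was not called in *prmt4a;4b* (0.20); the call in *prmt5* was lost without *prmt5* replicate 3, at 0.58. Its paralog AT1G72370, which gave 98.2 to 98.5% of the family's RPKM in *prmt5*, 98.5 to 99.0% in *prmt4a;4b* and 98.4 to 98.7% in wild-type plants, had log2 changes of 0.44 and 0.38, both under the limit of 0.58.

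Promoters of 2 S10 genes, and of the S29 genes described next, are shown as examples from a family that rose and a family that fell in both mutants; they do not stand for all genes of these families. Each is the 250 bases before the RefSeq gene start in TAIR10.1, 5′ to 3′ on the gene's strand, with capitals for matches on either strand to the telo-box (AAACCCTA) or the site II element (TGGGCC or TGGGCT), motifs known from plant ribosomal protein promoters.
AT4G25740 (chr4:13108828-13109077, minus strand): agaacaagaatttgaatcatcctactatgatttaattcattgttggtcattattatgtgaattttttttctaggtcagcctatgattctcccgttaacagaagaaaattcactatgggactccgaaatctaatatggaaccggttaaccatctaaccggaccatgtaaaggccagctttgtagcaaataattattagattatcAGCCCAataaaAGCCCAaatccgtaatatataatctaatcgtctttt
AT5G41520 (chr5:16610693-16610942, minus strand): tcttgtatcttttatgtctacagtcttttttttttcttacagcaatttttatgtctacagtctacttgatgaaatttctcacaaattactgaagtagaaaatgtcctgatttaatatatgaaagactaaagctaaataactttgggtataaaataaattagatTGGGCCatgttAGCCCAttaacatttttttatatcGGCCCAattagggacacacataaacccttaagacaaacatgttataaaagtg
AT3G43980 (chr3:15779361-15779610, minus strand): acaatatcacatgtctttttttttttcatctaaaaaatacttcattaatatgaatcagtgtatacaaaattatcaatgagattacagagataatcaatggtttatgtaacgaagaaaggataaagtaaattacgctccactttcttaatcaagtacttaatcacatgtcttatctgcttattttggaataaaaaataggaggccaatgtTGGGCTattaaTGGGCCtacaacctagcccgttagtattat
AT3G44010 (chr3:15801228-15801477, minus strand): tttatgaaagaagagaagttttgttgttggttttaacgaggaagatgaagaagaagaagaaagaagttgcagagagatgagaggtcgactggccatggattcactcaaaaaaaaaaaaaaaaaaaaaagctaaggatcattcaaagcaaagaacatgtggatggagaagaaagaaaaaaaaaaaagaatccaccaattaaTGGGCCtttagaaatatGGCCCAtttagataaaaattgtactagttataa
AT4G33865 (chr4:16234274-16234523, minus strand): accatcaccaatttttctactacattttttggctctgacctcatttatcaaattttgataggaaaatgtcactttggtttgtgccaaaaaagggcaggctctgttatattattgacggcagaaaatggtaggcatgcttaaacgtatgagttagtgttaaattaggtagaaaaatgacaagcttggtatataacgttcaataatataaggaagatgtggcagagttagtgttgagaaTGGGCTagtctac
Among the 53 genes, 32 (60.4%) had a site II element, against 19.2% of all 27443 promoters, and 9 (17.0%) had a telo-box, against 4.5%. These matches are letters in a window and say nothing of the factors that bind there.

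The genes of S29, S20 and S11 fell in both mutants, all 9 of them. S29 is a small zinc-binding protein of the head. AT3G44010 (chr3:15799931-15801200) had 43.7, 58.6 and 40.6 RPKM in *prmt5*, 47.3, 43.8 and 45.9 RPKM in *prmt4a;4b* and 134, 138 and 127 RPKM in wild-type plants. AT4G33865 (chr4:16233209-16234196) had 48.8, 64.7 and 50.6 RPKM in *prmt5*, 65.1, 53.3 and 59.7 RPKM in *prmt4a;4b* and 155, 169.6 and 116 RPKM in wild-type plants. No mutant library of either gene reached the lowest wild-type library. The log2 change of AT3G44010 was -1.52 (SE 0.16, adjusted p = 0.00015) in *prmt5* and -1.54 (SE 0.11, adjusted p = 2.6e-05) in *prmt4a;4b*, and that of AT4G33865 was -1.47 (SE 0.17, adjusted p = 0.00031) in *prmt5* and -1.31 (SE 0.15, adjusted p = 0.00015) in *prmt4a;4b* (edgeR). The third gene, AT3G43980, changed by -1.18 and -1.32.

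S20 is a protein of the head. AT3G45030 (chr3:16471386-16472393) had 27.2, 47.8 and 33.8 RPKM in *prmt5*, 22.8, 29.4 and 28.6 RPKM in *prmt4a;4b* and 97.8, 104 and 78.3 RPKM in wild-type plants, and its log2 change was -1.40 (SE 0.20, adjusted p = 0.00081) in *prmt5* and -1.79 (SE 0.15, adjusted p = 4.7e-05) in *prmt4a;4b* (edgeR). AT5G62300 (chr5:25021200-25022436) had 46.9, 77 and 69.7 RPKM in *prmt5*, 48.2, 53.8 and 50.4 RPKM in *prmt4a;4b* and 166, 179 and 143 RPKM in wild-type plants, and its log2 change was -1.38 (SE 0.18, adjusted p = 0.00055) in *prmt5* and -1.68 (SE 0.12, adjusted p = 2.6e-05) in *prmt4a;4b* (edgeR). Both genes were below wild type in every mutant library. AT3G47370, the third, changed by -1.08 and -1.17, and its share of the family was 19.5 ± 3.64% in *prmt5*, 21.8 ± 1.17% in *prmt4a;4b* and 15.9 ± 0.503% in wild-type plants (SD, n = 3 each).

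S11 lies in the body of the subunit. AT4G30800 (chr4:15001134-15002671) had 1.34, 2.62 and 2.06 RPKM in *prmt5*, 0.896, 2.40 and 1.51 RPKM in *prmt4a;4b* and 4.82, 4.78 and 2.97 RPKM in wild-type plants, all mutant libraries below all wild-type ones. Its log2 change was -1.10 (SE 0.30, adjusted p = 0.017) in *prmt5* and -1.38 (SE 0.34, adjusted p = 0.0085) in *prmt4a;4b* (edgeR). AT3G48930 and AT5G23740 changed by -1.22 and -0.71 in *prmt5* and by -1.32 and -1.10 in *prmt4a;4b*. The call of AT5G23740 in *prmt5* was lost without *prmt5* replicate 1, at -0.49.

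Summed over paralogs, RPKM of S29 was 111 ± 17.9 in *prmt5*, 113 ± 7.42 in *prmt4a;4b* and 300.0 ± 34.2 in wild-type plants (SD, n = 3 each), a log2 ratio to wild type of -1.43 and -1.41. The sum of S10 was 851 ± 144 RPKM in *prmt5*, 1017 ± 124 in *prmt4a;4b* and 475 ± 61.6 in wild-type plants. Messages for proteins that stand in equal numbers in the subunit were thus shifted by unequal amounts. The log2 ratio of the sums ranged from -1.43 (S29) to 0.84 (S10) in *prmt5* and from -1.62 (S20) to 1.10 (S10) in *prmt4a;4b*. These sums have no test.

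**Figure D2:**
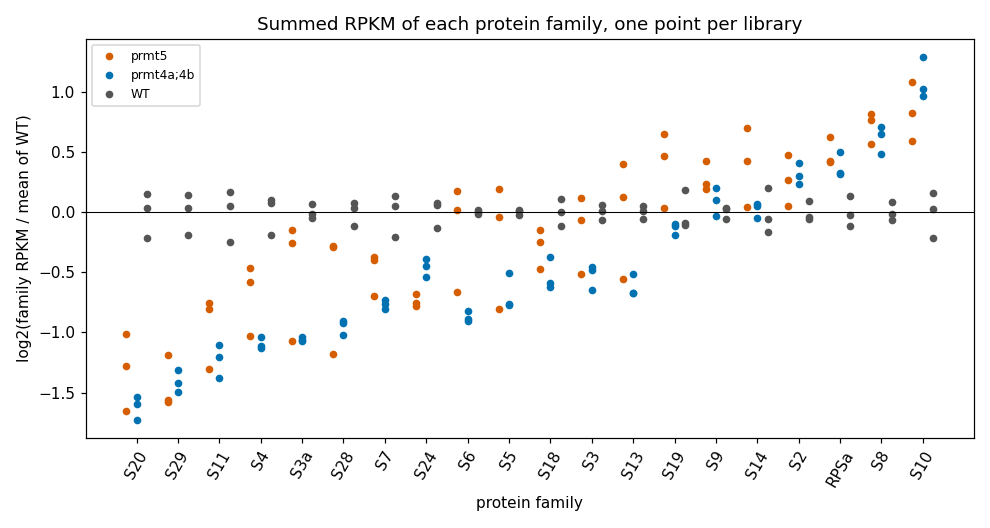
Log2 of the summed RPKM of each protein family over the wild-type mean, with a point for each library of *prmt5*, *prmt4a;4b* and wild type. All mutant points of S10, S8 and RPSa lie above the wild-type points, and all those of S11, S20 and S29 lie below them.

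S4, S24 and S3a had no member that rose. Of the S4 genes, AT2G17360 had 46.6, 45.4 and 41.4 RPKM in *prmt5*, 46.7, 50.9 and 48.3 RPKM in *prmt4a;4b* and 99.4, 104 and 82.6 RPKM in wild-type plants, and AT5G58420 had 53.4, 72.4 and 80.2 RPKM in *prmt5*, 47.8, 49.9 and 46.8 RPKM in *prmt4a;4b* and 117, 123 and 94.4 RPKM in wild-type plants. Both fell in both mutants (-1.15 and -0.74 in *prmt5*, -0.97 and -1.21 in *prmt4a;4b*). The third, AT5G07090, had 94.4, 147 and 166 RPKM in *prmt5*, 98.3, 82.7 and 86.5 RPKM in *prmt4a;4b* and 202, 198 and 170.0 RPKM in wild-type plants, and fell in *prmt4a;4b* (-1.09), with -0.53 in *prmt5*, where it was called only without *prmt5* replicate 2 (-0.59), *prmt5* replicate 3 (-0.69) or WT replicate 3 (-0.60). The 2 S24 genes fell in *prmt5* (AT3G04920 -0.72 and AT5G28060 -0.81) and were not called in *prmt4a;4b* (-0.45 and -0.46), except AT3G04920 without WT replicate 3 (-0.60). The 2 S3a genes fell in *prmt4a;4b* (AT3G04840 -1.25 and AT4G34670 -0.91) and were not called in *prmt5* (-0.43 and -0.52), but were lower without *prmt5* replicate 3 (-0.59 and -0.69), as was AT4G34670 without *prmt5* replicate 2 (-0.60). S6, the protein that S6 kinase phosphorylates downstream of TOR, had the same calls, with AT4G31700 at -1.03 and AT5G10360 at -0.74 in *prmt4a;4b* and -0.24 and -0.09, not called, in *prmt5*.

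Paralogs of 1 protein did not always move alike. In S18, which contacts the large subunit and the initiator tRNA site, AT1G34030 (chr1:12370065-12371553) had 25.7, 30.2 and 25 RPKM in *prmt5*, 31.8, 28.6 and 32.2 RPKM in *prmt4a;4b* and 65.6, 70.6 and 49.2 RPKM in wild-type plants. It fell in both mutants, with a log2 change of -1.24 (SE 0.16, adjusted p = 0.0005) in *prmt5* and -1.0 (SE 0.14, adjusted p = 0.00043) in *prmt4a;4b* (edgeR). AT1G22780, known as PFL, had 82.6, 90.9 and 106 RPKM in *prmt5*, 60.9, 54.5 and 66.4 RPKM in *prmt4a;4b* and 80.2, 85.8 and 74 RPKM in wild-type plants, and AT4G09800 had 58.3, 73.5 and 76.6 RPKM in *prmt5*, 57.7, 71 and 80.4 RPKM in *prmt4a;4b* and 85.6, 92.4 and 90.6 RPKM in wild-type plants. Neither was called (0.18 and -0.41 in *prmt5*, -0.40 and -0.36 in *prmt4a;4b*). As a share of the family's RPKM, AT1G22780 took 49.6, 46.7 and 51.2% in *prmt5*, 40.5, 35.4 and 37.1% in *prmt4a;4b* and 34.7, 34.5 and 34.6% in wild-type plants, and AT1G34030 took 15.4, 15.5 and 12% in *prmt5*, 21.1, 18.5 and 18% in *prmt4a;4b* and 28.3, 28.4 and 23% in wild-type plants. The *prmt5* and wild-type shares did not overlap in either gene (exact permutation p = 0.10, two-sided, the smallest that 3 against 3 libraries allow).

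In S28, AT5G03850 had 48.3, 72.2 and 70.5 RPKM in *prmt5*, 53, 57 and 55.7 RPKM in *prmt4a;4b* and 154, 159 and 117 RPKM in wild-type plants and AT3G10090 had 12.7, 21.4 and 20.4 RPKM in *prmt5*, 9.01, 16 and 13.5 RPKM in *prmt4a;4b* and 28.2, 36.3 and 28.6 RPKM in wild-type plants. Both fell in both mutants (-1.21 and -0.81 in *prmt5*, -1.37 and -1.27 in *prmt4a;4b*). AT5G64140 had 79.9, 168 and 172 RPKM in *prmt5*, 95.3, 98 and 99.2 RPKM in *prmt4a;4b* and 145, 142 and 150.0 RPKM in wild-type plants and was not called, at -0.09 in *prmt5* and -0.58 in *prmt4a;4b*, the second just inside the limit and called without WT replicate 2 (-0.59) or without *prmt4a;4b* replicate 2 (-0.60) or 3 (-0.61). Its share of the family was 56.7, 64.3 and 65.4% in *prmt5*, 60.6, 57.3 and 58.9% in *prmt4a;4b* and 44.3, 42.1 and 50.8% in wild-type plants.

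S19 was the family with members called in both directions in *prmt5*. S19 is needed to mature the ribosomal RNA of the small subunit in yeast and human cells. AT5G61170 had 301, 366 and 417 RPKM in *prmt5*, 246, 225 and 232 RPKM in *prmt4a;4b* and 209, 205 and 275 RPKM in wild-type plants, and rose in *prmt5* by 0.61 (SE 0.16, adjusted p = 0.013) in edgeR, a call lost without *prmt5* replicate 3 (0.50), WT replicate 1 (0.55) or WT replicate 2 (0.54). AT5G15520 had 3.23, 3.31 and 5.20 RPKM in *prmt5*, 3.51, 5.51 and 6.86 RPKM in *prmt4a;4b* and 6.86, 7.26 and 5.62 RPKM in wild-type plants and fell in *prmt5* (-0.80). AT3G02080 had 111, 189 and 214 RPKM in *prmt5*, 129, 124 and 134 RPKM in *prmt4a;4b* and 164, 164 and 178 RPKM in wild-type plants and was not called (-0.02). In *prmt4a;4b* these genes were not called, at 0.03 (AT5G61170), -0.31 (AT5G15520) and -0.39 (AT3G02080). AT5G61170 took 72.5, 65.6 and 65.5% in *prmt5*, 65, 63.5 and 62.2% in *prmt4a;4b* and 55, 54.4 and 59.9% in wild-type plants of the family.

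In S7, which helps to process the ribosomal RNA precursor in yeast, AT1G48830 had 57, 77.1 and 85.6 RPKM in *prmt5*, 45.6, 43.7 and 39.9 RPKM in *prmt4a;4b* and 70.9, 76.2 and 72.2 RPKM in wild-type plants, and was not called in *prmt5* (-0.04). AT3G02560 had 23.9, 27.8 and 26 RPKM in *prmt5*, 31.7, 31.9 and 33.7 RPKM in *prmt4a;4b* and 57.9, 62.8 and 38.9 RPKM in wild-type plants and AT5G16130 had 57.2, 67.8 and 58.6 RPKM in *prmt5*, 57.9, 56.3 and 54.8 RPKM in *prmt4a;4b* and 103, 107 and 82.9 RPKM in wild-type plants. These 2 genes fell in *prmt5* (-1.08 and -0.72). In *prmt4a;4b* all 3 fell, with log2 changes of -0.76 (AT1G48830), -0.71 (AT3G02560) and -0.80 (AT5G16130), and AT3G02560 was no longer called without WT replicate 2 (-0.58). The share of AT1G48830 was 45.4 ± 4.55% in *prmt5*, 32.7 ± 1.41% in *prmt4a;4b* and 32.9 ± 3.74% in wild-type plants (SD, n = 3 each).

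S2, at the entry of the messenger RNA channel, has 4 genes among the 53. AT1G58380 had 83.3, 53.7 and 68.2 RPKM in *prmt5*, 58.8, 58.1 and 63.7 RPKM in *prmt4a;4b* and 47.6, 36.8 and 40.2 RPKM in wild-type plants, and rose in *prmt5* by 0.68 (SE 0.16, adjusted p = 0.01) in edgeR, a call lost without *prmt5* replicate 1 (0.52). AT2G41840 had 280.5, 232 and 255 RPKM in *prmt5*, 318, 278 and 321 RPKM in *prmt4a;4b* and 271, 262 and 259 RPKM in wild-type plants, and AT3G57490 had 20.4, 15.7 and 17.2 RPKM in *prmt5*, 17.1, 21.5 and 19.6 RPKM in *prmt4a;4b* and 13.1, 11.9 and 14.9 RPKM in wild-type plants. Neither was called in either mutant, though AT3G57490 was higher in *prmt4a;4b* without *prmt4a;4b* replicate 1 (0.62) or WT replicate 3 (0.64), as was AT1G58380 without WT replicate 1 (0.65). AT1G59359 had 263, 182 and 220.1 RPKM in *prmt5*, 179.5, 191 and 213 RPKM in *prmt4a;4b* and 164, 138 and 139 RPKM in wild-type plants, but every window of 100 bases of its transcript occurs in another gene, and 11.3% of those of AT1G58380 do, so reads of these 2 genes may be split between copies and their values are uncertain. AT1G59359 had a log2 change of 0.55 in *prmt5*, called only without *prmt5* replicate 2 (0.67), without WT replicate 1 (0.63) or in a joint fit of 9 libraries (0.59). The genes that share windows with AT1G59359 include AT1G58684 and AT1G58983. These are not among the 53, so the summed RPKM and the shares of S2 leave them out. Among the 53 genes, 47 share no window of 100 bases with another gene. In RefSeq, 12 of the 53 genes overlap a neighbouring gene, among them AT1G72370, AT1G48830, AT3G02560, AT5G16130, AT5G59240, AT3G48930, AT4G09800 and AT5G15520 with a gene on the opposite strand, and reads in such an overlap cannot be assigned to either gene.

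In S5, AT2G37270 had 34, 36.8 and 32.7 RPKM in *prmt5*, 38.3, 37.7 and 39.1 RPKM in *prmt4a;4b* and 58.9, 65.1 and 55.2 RPKM in wild-type plants and fell in both mutants (-0.84 in *prmt5* and -0.64 in *prmt4a;4b*, no longer called there without WT replicate 2, at -0.57). AT3G11940, known as AML1 for its minute-like mutant, had 131, 243 and 296 RPKM in *prmt5*, 164, 132 and 129.7 RPKM in *prmt4a;4b* and 225, 226 and 235 RPKM in wild-type plants and fell in *prmt4a;4b* (-0.69), with -0.08 in *prmt5*. In *prmt5* the libraries of AT3G11940 lay on both sides of wild type, replicate 1 the lowest.

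S3 lines the messenger RNA entry channel. AT2G31610 had 77.3, 127 and 151 RPKM in *prmt5*, 73, 75 and 77.3 RPKM in *prmt4a;4b* and 129.7, 134 and 118 RPKM in wild-type plants, AT5G35530 had 53.3, 68 and 76.5 RPKM in *prmt5*, 51.1, 63.8 and 65 RPKM in *prmt4a;4b* and 93.6, 97.5 and 86.2 RPKM in wild-type plants and AT3G53870 had 145, 182 and 199.9 RPKM in *prmt5*, 127, 144 and 144 RPKM in *prmt4a;4b* and 172, 178 and 173 RPKM in wild-type plants. In *prmt4a;4b* the first 2 of these fell (-0.76 and -0.62, the second no longer called without *prmt4a;4b* replicate 1, at -0.53) and AT3G53870 was not called (-0.33). In *prmt5* they were not called (-0.14, -0.53 and -0.03), except AT5G35530 without *prmt5* replicate 3 (-0.65) or WT replicate 3 (-0.58).

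In S13, AT4G00100, known as PFL2, had 144, 257 and 299.8 RPKM in *prmt5*, 137, 155 and 138 RPKM in *prmt4a;4b* and 237, 221 and 251 RPKM in wild-type plants, and AT3G60770 had 94.5, 126 and 165 RPKM in *prmt5*, 85.1, 91.3 and 83.3 RPKM in *prmt4a;4b* and 117, 117 and 114 RPKM in wild-type plants. AT4G00100 fell in *prmt4a;4b* (-0.72) and AT3G60770 was not called there (-0.42). In *prmt5* neither was called (-0.06 and 0.11). Members of S9 and S14 were called in neither mutant, though the S14 gene AT3G11510 was higher in *prmt5* without *prmt5* replicate 1 (0.61, against 0.36 with all libraries).

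Over all families, the mean share of a gene in its family differed from wild type by more than 5 percentage points for 18 genes in *prmt5* and 13 in *prmt4a;4b*, and by at most 16.4 and 13.2 points. The mutant libraries did not overlap wild type for 12 of these 18 genes and for all 13. A rise in the share of any paralog is a fall in the rest of its family, so these counts are not of separate shifts. In S3a, for example, AT3G04840 at -5.68 points and AT4G34670 at 5.68 in *prmt4a;4b* both count. No such count was made for other gene families. The number beyond 5 points in *prmt5* was 11 without *prmt5* replicate 3. Coding sequences of paralogs were 75.1 to 97.5% identical over 47 pairs.

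**Figure D3:**
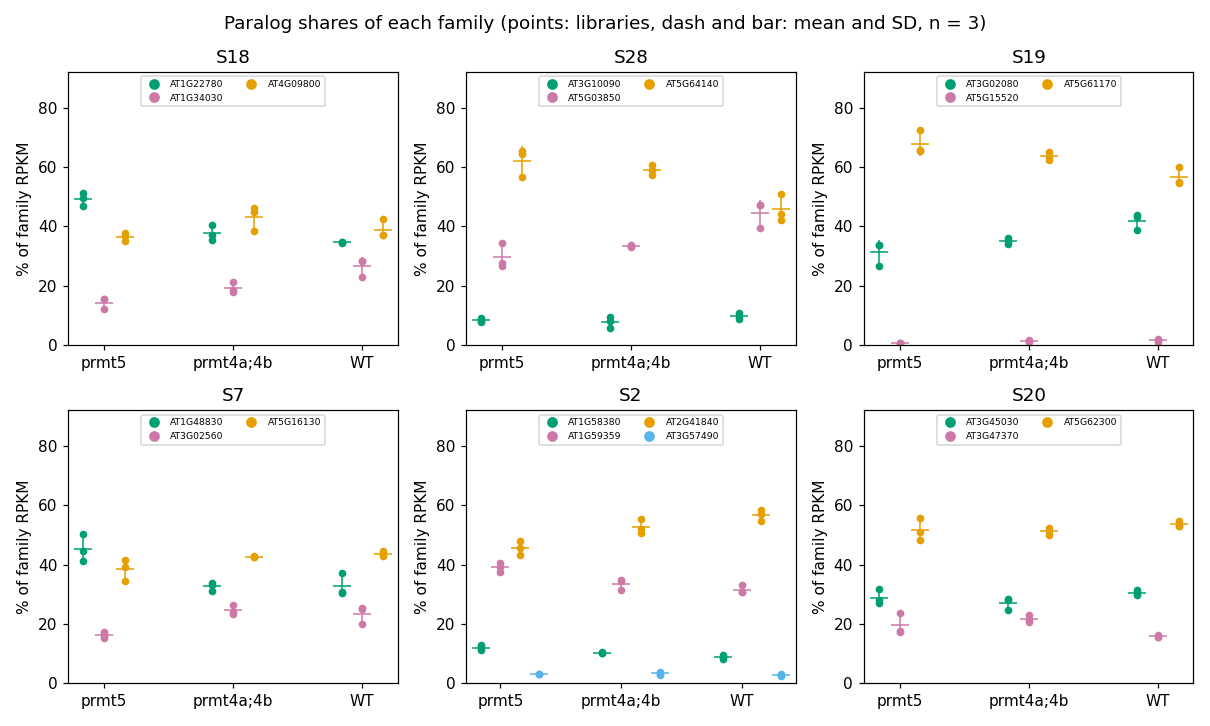
Share of each paralog in its family's RPKM, in percent, for *prmt5*, *prmt4a;4b* and wild type, with a point for each library and the mean and SD. In S28 the *prmt5* libraries of AT5G64140 lie above the wild-type ones, and in S18 those of AT1G34030 lie below them.

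In a direct test of the mutants that used all 9 libraries, 11 of the 53 genes were higher in *prmt5* than in *prmt4a;4b* and 0 were lower, against 9.40% higher and 8.38% lower among 21193 genes tested (edgeR). At an unadjusted p under 0.05, 23 were higher and 1 was lower, against 3898 and 3678 of the 21193 genes. DESeq2 called 11 and 0 of the 53, against 1949 and 1862 among all genes. The count of higher genes was 22 without *prmt5* replicate 1 and 4 without *prmt5* replicate 3, and 1 gene was lower without *prmt4a;4b* replicate 1. The largest difference was that of the S8 gene AT5G59240, 1.25 (SE 0.31, adjusted p = 0.012) on the log2 scale. S3a AT3G04840 (0.86) and the S6 gene AT4G31700 (0.84) followed, and the second S6 gene, AT5G10360, was at 0.69, behind the S7 gene AT1G48830 (0.77) and the S13 gene AT4G00100 (0.71). The median over the 53 genes was 0.20. Of 9 markers of dividing cells, 6 fell in *prmt4a;4b* and 0 were called in *prmt5* by edgeR, by DESeq2 or at an unadjusted p under 0.05, with summed levels of 68.3 to 93.3 CPM in *prmt5*, 41.2 to 49.4 in *prmt4a;4b* and 77.1 to 97.4 in wild-type plants, and 8 of the 9 were higher in *prmt5* than in *prmt4a;4b*. Of 6 seed storage genes, 3 were higher in *prmt5* by edgeR and 1 by DESeq2, and 3 of the 3 tested were lower in *prmt4a;4b* by both. Their summed level was 33.8 to 279.9 CPM in *prmt5*, with libraries on both sides of wild type, and 59.2 to 76.6 CPM in *prmt4a;4b*, against 112 to 191 CPM in wild type. Of 8 root genes, 3 were higher and 1 lower in *prmt5*, and 2 of 7 tested were higher and 0 lower in *prmt4a;4b* (edgeR). Their summed level was 26.9 to 43.4 CPM in *prmt5*, 22.9 to 23.5 in *prmt4a;4b* and 13.2 to 22.5 in wild type. Of 7 floral organ genes only 2 were tested, with 0 called in *prmt5* and 1 lower in *prmt4a;4b*. The part of these markers in the difference between the mutants, and that of the plastid shares, was not tested.

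Splicing was measured in bins of annotated alternative splicing events and in introns. The 53 genes hold 17 such bins, of which 13 (in 11 genes) passed the minimums of reads, gene density and splicing index, and 182 introns. Of the introns, 124 in *prmt5* and 116 in *prmt4a;4b* passed the minimum of reads, and 40 and 39 were left to test after the minimum splicing index. In *prmt5*, 1 bin was higher and 3 were lower, against 16.2% higher and 12.3% lower among 4342 bins tested, and in *prmt4a;4b* 1 was higher and 1 lower, against 18.6% and 14.2% of 4074. Among introns, 5 were higher and 5 lower in *prmt5*, against 34.0% higher and 7.03% lower of 14870, and 3 were higher and 7 lower in *prmt4a;4b*, against 15.4% and 10.5% of 10976. An intron was tested when its index was over 0.05 in either genotype, in the 53 genes and in the background alike. Those higher in *prmt4a;4b* passed through the mutant alone, with wild-type indices of 0.0426, 0.0204 and 0.0089. So did those higher in *prmt5* except that of AT4G00100, while some lower introns passed through wild type alone. The filter thus set the direction of such calls in part. With the gene's own count as offset, 5 introns were higher and 3 lower in *prmt4a;4b*. A call needed an adjusted p under 0.15 in edgeR and a change beyond 0.58 on the log2 scale, in the same direction, in both the reads and the splicing index, which is the read density of a bin or intron over that of its gene. In *prmt5* the higher introns were 9 without *prmt5* replicate 1 and 2 without *prmt5* replicate 2, the lower bins were 1 without WT replicate 1, and the higher bin was lost without *prmt5* replicate 1 or WT replicate 2. In *prmt4a;4b* the higher introns were 1 without *prmt4a;4b* replicate 3 or WT replicate 2, and the lower bins were 2 without WT replicate 2 or 3.

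The RPSa gene AT1G72370 and the S6 gene AT4G31700 held the bins that were called in both mutants. In AT1G72370, the bin is a stretch of 12 coding bases (chr1:27243207-27243218, minus strand) between 2 alternative 3′ splice sites. In AT4G31700 it is a coding exon of 65 bases that can be skipped (chr4:15347558-15347622, minus strand). Both are shown with 40 bases on each side, since these are the sequences that were kept or left out, with the bin in capitals. The third sequence is a bin of 15 bases upstream of the coding start of the S7 gene AT1G48830 (chr1:18060964-18060978, minus strand), also between alternative 3′ splice sites, with 14 bases before it.
AT1G72370 bin: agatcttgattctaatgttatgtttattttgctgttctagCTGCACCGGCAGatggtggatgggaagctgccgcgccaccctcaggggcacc
AT4G31700 bin: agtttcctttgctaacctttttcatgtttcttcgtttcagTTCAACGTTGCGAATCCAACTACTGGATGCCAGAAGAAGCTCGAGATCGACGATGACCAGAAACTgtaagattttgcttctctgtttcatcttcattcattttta
AT1G48830 bin: tgtttttgatccagAGTGCTCTGATCAAG

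The splicing index of the AT1G72370 bin was 30.3, 20.5 and 23.3 in *prmt5*, 36.5, 32.2 and 34.3 in *prmt4a;4b* and 17.4, 15 and 16.3 in wild-type plants. For a bin shorter than a read the index can lie far above 1, so it is compared only between genotypes. Its reads rose by 1.09 (SE 0.21, adjusted p = 0.00084) in *prmt5* and 1.46 (SE 0.16, adjusted p = 7.3e-06) in *prmt4a;4b* on the log2 scale (edgeR), with index ratios of 0.60 and 1.08. All mutant libraries were above all wild-type ones, but the index ratio in *prmt5* was close to the limit and the call was lost without *prmt5* replicate 1 (0.95 for the reads) or WT replicate 2 (0.98). The intron just before the bin (chr1:27243219-27243294) was higher in *prmt4a;4b*, with an index of 0.0411, 0.0537 and 0.0365 in *prmt5*, 0.0594, 0.0430 and 0.0686 in *prmt4a;4b* and 0.0163, 0.0170 and 0.0270 in wild-type plants. It was not tested in *prmt5*, since its mean index was under the minimum in both *prmt5* and wild type. Every *prmt5* library was above every wild-type one.

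The index of the skipped exon of AT4G31700 was 0.414, 0.530 and 0.456 in *prmt5*, 0.514, 0.415 and 0.506 in *prmt4a;4b* and 1.39, 0.948 and 0.685 in wild-type plants. Its reads fell in both mutants, with a change of -1.29 (SE 0.31, adjusted p = 0.0047) in *prmt5* and -2.12 (SE 0.26, adjusted p = 1.1e-05) in *prmt4a;4b* on the log2 scale (edgeR). The intron before it (chr4:15347623-15347698) had an index of 0.0203, 0.0546 and 0.0406 in *prmt5*, 0.0154, 0.0260 and 0.0218 in *prmt4a;4b* and 0.114, 0.117 and 0.0702 in wild-type plants, and was lower in both mutants, with a log2 change in reads of -1.46 (SE 0.39, adjusted p = 0.0055) in *prmt5* and -3.29 (SE 0.41, adjusted p = 2.3e-05) in *prmt4a;4b* (edgeR). A second bin of this gene, named after its values were seen (chr4:15347231-15347288), was lower in *prmt5*, with an index of 1.61, 1.37 and 1.35 in *prmt5*, 1.68, 1.59 and 1.73 in *prmt4a;4b* and 2.79, 2.31 and 1.77 in wild-type plants, a call lost without WT replicate 1 (-0.73). The AT1G48830 bin was lower in *prmt5*, with an index of 1.44, 0.793 and 0.921 in *prmt5*, 1.85, 2.72 and 2.38 in *prmt4a;4b* and 2.86, 1.75 and 1.03 in wild-type plants. Its *prmt5* and wild-type libraries overlapped, and the call was lost without WT replicate 1 (-0.51) or *prmt5* replicate 2 (-0.77).

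**Figure D4:**
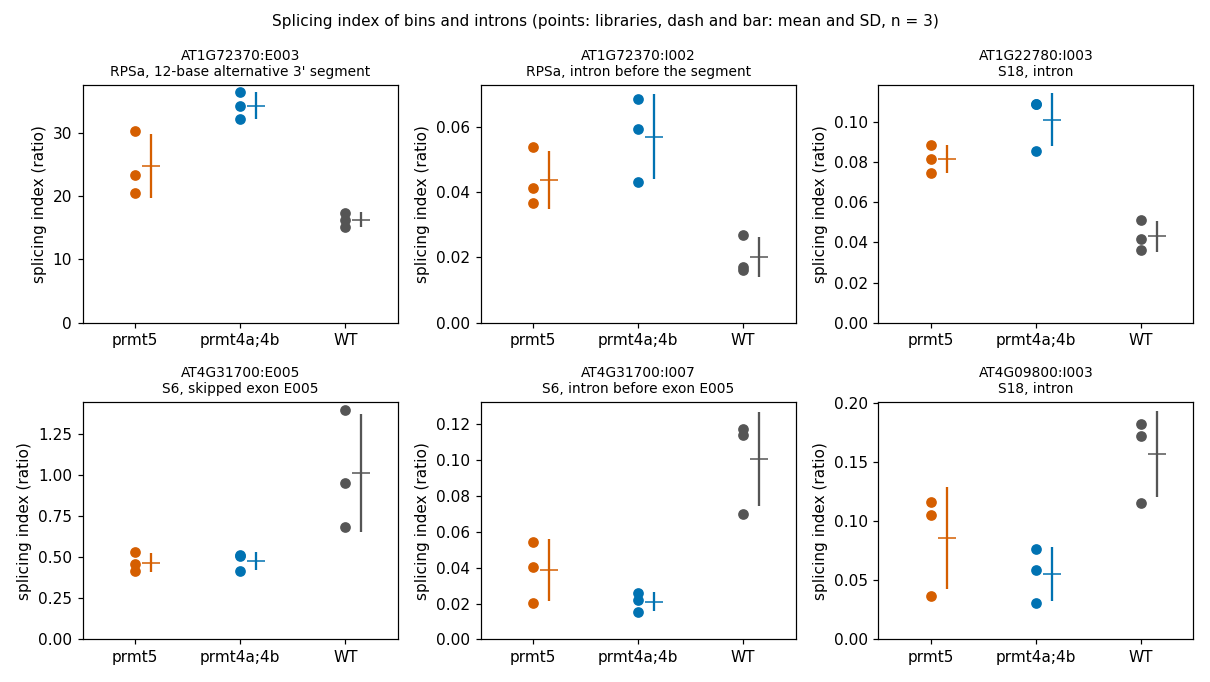
Splicing index, the read density of a bin or intron over that of its gene, in *prmt5*, *prmt4a;4b* and wild type, with a point for each library and the mean and SD. The AT1G72370 bin is higher in both mutants and the AT4G31700 bin is lower in both.

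The introns named by their index change were 9. The donor site at the annotated start of each (3 exon bases, then 6 intron bases in capitals) is shown. The donor is the sequence that the U1 particle reads first.
AT3G02560: cagGTTATT
AT4G31700: acgGCGAAA
AT3G52580: ttgGTAAAA
AT4G09800: cagGTAAAT
AT1G72370: ctgGTGAGT
AT1G48830: aagGTAAGT
AT1G22780: cagGTAACA
AT4G34670: cagGTTACA
AT5G23740: cagGTTCAT
The last exon base was G in 9 of 9 and the fifth intron base was G in 2 of 9, against 83.5% and 51.6% of the 182 introns of the 53 genes and 76.5% and 49.8% of 120457 introns in all. With 9 introns this is a description. The AT4G31700 site, which these counts include, follows an annotated alternative 5′ segment of 10 bases (chr4:15347699-15347708). That segment had 0, 0 and 0 reads in *prmt5*, 0, 1 and 0 in *prmt4a;4b* and 0, 0 and 0 in wild-type plants. The printed AT4G31700 site is thus an alternative donor that was hardly used, and the donor before the segment is not shown.

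In the S18 gene AT1G22780 the intron (chr1:8068792-8069057) had an index of 0.0816, 0.0748 and 0.0887 in *prmt5*, 0.0858, 0.109 and 0.109 in *prmt4a;4b* and 0.0417, 0.0362 and 0.0511 in wild-type plants, and was higher in both mutants, by 1.17 (SE 0.32, adjusted p = 0.007) in *prmt5* and 0.85 (SE 0.33, adjusted p = 0.079) in *prmt4a;4b* (edgeR); the call in *prmt4a;4b* was lost without *prmt4a;4b* replicate 3 (0.72), WT replicate 1 (0.84) or WT replicate 2 (0.79). In its paralog AT4G09800 the intron (chr4:6174765-6174857) had an index of 0.0368, 0.116 and 0.105 in *prmt5*, 0.0591, 0.0764 and 0.0309 in *prmt4a;4b* and 0.116, 0.183 and 0.172 in wild-type plants, and was lower in both, with the call in *prmt5* lost without *prmt5* replicate 1 (-0.77). Paralogs of S18 thus had introns called in opposite directions. Introns of the S3a gene AT4G34670 (chr4:16549735-16549826) and the S11 gene AT5G23740 (chr5:8009238-8009318) were also lower in both mutants. The call of AT5G23740 in *prmt4a;4b* was lost with the gene's own count as offset (-1.10, adjusted p = 0.22, edgeR), and this intron was not called in either mutant with a minimum mean of 20 reads. Their indices were 0.0383, 0.0588 and 0.0480 in *prmt5*, 0.0266, 0.0484 and 0.0382 in *prmt4a;4b* and 0.0721, 0.0800 and 0.0919 in wild-type plants for AT4G34670, and 0.0472, 0.0428 and 0.0291 in *prmt5*, 0.0299, 0.0214 and 0.0674 in *prmt4a;4b* and 0.0696, 0.109 and 0.0772 in wild-type plants for AT5G23740.

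Other named introns had few reads. That of the S14 gene AT3G52580 (chr3:19504549-19504633) was higher in *prmt5*, with 6, 22 and 15 reads in *prmt5*, 0, 3 and 4 in *prmt4a;4b* and 1, 8 and 0 in wild-type plants, and was not called without *prmt5* replicate 2 or with a minimum mean of 20 reads. It had too few reads to be tested in *prmt4a;4b*. That of the S7 gene AT3G02560 (chr3:542416-542500) was higher in *prmt4a;4b*, with 4, 0 and 4 reads in *prmt5*, 8, 1 and 7 in *prmt4a;4b* and 1, 2 and 1 in wild-type plants. Its call was lost without any 1 of the wild-type libraries (2.14 to 2.59 on the log2 scale). It was also lost without *prmt4a;4b* replicate 1 or 3, or with a minimum mean of 20 reads. This intron had too few reads to be tested in *prmt5*. The intron of AT1G48830 (chr1:18059974-18060056) was lower in *prmt5*, with 3, 3 and 7 reads in *prmt5*, 10, 9 and 6 in *prmt4a;4b* and 11, 11 and 12 in wild-type plants. That call was lost without *prmt5* replicate 1 (-1.39) or 2 (-1.22), or with a minimum mean of 20 reads. Counts this low leave wide errors. The library kit does not mark strand, and no intron of the 53 genes overlaps another annotated gene.

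Genes for other 40S proteins and for ribosome assembly were counted from lists of locus identifiers. Of 42 further 40S protein genes, 8 were higher and 5 lower of 37 tested in *prmt5*, and 2 higher and 10 lower of 36 in *prmt4a;4b*, with median log2 changes of 0.13 and -0.24. These are 21.6% higher and 13.5% lower in *prmt5*, against 11.9% and 14.2% of all genes tested. In *prmt4a;4b* they are 5.56% and 27.8%, against 13.8% and 12.0%. The lower share in *prmt5* was thus near its background, unlike that of the 53 genes (37.7%). Among these 42 genes, AT3G10610 was lower in both mutants (-1.41 in *prmt5* and -1.36 in *prmt4a;4b*). Of 22 genes of ribosome biogenesis and its control, 3 were higher and 2 lower in *prmt5*, and 1 higher and 4 lower in *prmt4a;4b*. As shares, these are 13.6% higher and 9.09% lower in *prmt5*, near the 11.9% and 14.2% of all genes tested. In *prmt4a;4b* they are 4.55% and 18.2%, against 13.8% and 12.0%. The nucleolin genes AT3G18610 (1.95) and AT1G48920 (0.68), whose proteins act in ribosomal RNA transcription and processing, rose in *prmt5*, and TCP20 (AT3G27010), a transcription factor that binds site II elements, fell there (-1.13).

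Across the 53 genes, those with longer exonic sequence (400 to 1231 bases) had the higher changes, with Pearson's r of 0.42 in *prmt5* and 0.37 in *prmt4a;4b* (Spearman's rho 0.40 and 0.35), while r with the log2 level in wild type was 0.07 in both. Genes are not independent replicates, paralogs share their length, and these are descriptions.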

How the data were processed

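RNA was taken from whole plants, poly(A) RNA was selected, and libraries were made with random primers and a kit that does not mark strand. TopHat2 2.0.9 and TAIR10 are named in the submitters' processing notes, and the authors deposited raw read counts for genes, for bins within annotated alternative splicing events, and for introns. How reads that map to several places were counted is not given in the sources used here. The authors' tables of their own comparisons (fold changes and FDR made with edgeR 3.4.2 in R 3.0.2) were not used. The lengths used here are those deposited with the counts.

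Counts of the 9 libraries were scaled by TMM and went into the quasi-likelihood test of edgeR 4.0.16 (R 4.3.3), with Benjamini-Hochberg adjustment over all features tested. Each mutant was set against wild type in a fit of 6 libraries, and the mutants against each other in a fit of 9. Genes needed a mean of 10 reads in at least 1 of the genotypes compared. Bins and introns needed a mean of 5 reads in at least 1 of them and a splicing index over 0.05 in at least 1. Their genes needed a density over 0.05 reads per base in each genotype compared. The tests were also run on counts simulated for *prmt5* and wild type, with the same dispersion for every feature. The spread of the real libraries was not simulated, so that run does not show how the tests behave on it. Shares of a paralog in its family were compared by an exact permutation test. Promoters (1 of which is not reported here) and donor sites were read from RefSeq TAIR10.1, in which 99.58% of 120457 deposited introns begin with GT or GC and end with AG. Exact 95% intervals of the share of reads were computed for counting error only. Reads of a gene and of a gene that overlaps it cannot be told apart, and 12 of the 53 genes overlap another gene in RefSeq.

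The members, families and gene lists were chosen with earlier results of these data known. Values per library are given for the 10 families with the most unlike paralogs among those whose members differ in call, and for the 5 largest rises and falls in each mutant. Bins and introns are named when called in either mutant, at most 12, by their index ratio. Alternatives were DESeq2 1.42.0 and its size factors, no filter on low counts, organelle genes left out, an adjusted p under 0.05, a joint fit, the replicate number as a block, a mean of 20 reads for bins and introns, the gene's own count as an offset, shares of reads not divided by length, and each library left out in turn. Leaving out libraries for paralog shares and family sums was chosen after seeing the data.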

Additional observations from a re-analysis of the deposited data

Results flagged for a closer look

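In the direct test of *prmt5* against *prmt4a;4b* (edgeR, adjusted over 21193 genes), the following genes differed between the mutants, all higher in *prmt5*. The log2 difference of *prmt5* over *prmt4a;4b* was 1.25 for AT5G59240 (S8), which is expressed at a low level. It was 0.86 for AT3G04840 (S3a), 0.84 for AT4G31700 and 0.69 for AT5G10360 (both S6), and 0.77 for AT1G48830 (S7). It was 0.71 for AT4G00100 (S13), 0.66 for AT2G31610 (S3), 0.65 for AT3G11940 (S5) and 0.61 for AT5G07090 (S4). It was 0.62 for both AT1G22780 (S18) and AT5G61170 (S19). Of these, AT2G31610, AT3G11940, AT4G00100, AT5G07090, AT5G10360, AT1G22780 and AT5G61170 were no longer called without *prmt5* replicate 3.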

How the results depend on the processing

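Under other scalings, DESeq2, no filter, organelle genes left out, a stricter adjusted p and a joint fit, the counts of genes called stayed within 1.5 times those given. With each library left out in turn, the genes called in *prmt5* were 6 to 8 higher and 19 to 24 lower, those in *prmt4a;4b* were 3 to 5 and 26 to 28, and those in the direct test were 4 to 22 and 0 to 1. The bins called were 0 to 1 higher and 1 to 4 lower in *prmt5*, and 1 higher and 1 to 2 lower in *prmt4a;4b*. The introns were 2 to 9 higher and 4 to 7 lower in *prmt5*, and 1 to 3 and 6 to 10 in *prmt4a;4b*. Shares beyond 5 points were 11 to 19 in *prmt5* and 11 to 16 in *prmt4a;4b*. With a mean of at least 20 reads, 3 introns were lower in *prmt5*. With the gene's own count as offset, 5 introns were higher and 3 lower in *prmt4a;4b*, and AT4G34670:I006 (0.69) and AT4G31700:I003 (0.71) had the opposite sign to their change in reads (-0.22 and -0.33, not called); this setting gives the change relative to the gene, which the reads alone do not. Correlations of same-numbered deviations over all genes were -0.16 to 0.16, so the numbers were not taken as pairs; over the 53 genes they were -0.10 to 0.59 (-0.46 to 0.19 for other numbers), and each *prmt5* library correlated best with the wild-type library of its own number (0.18, 0.59 and 0.30), a hint of pairing from the data and not from the design. With the replicate block 9 of 10 intron calls remained in *prmt4a;4b* (2 higher and 7 lower, AT3G02560:I003 at 2.05 lost) while no call of a gene or bin changed. Few reads limit the introns.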

Other observations

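AT5G09490, a 40S protein gene outside the 20 families, had 34, 102 and 0 reads in *prmt5*, 32, 46 and 0 in *prmt4a;4b* and 0, 0 and 0 in wild-type plants. It was read in replicates 1 and 2 of both mutants and listed at 0 in replicate 3 of both.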
